A study of Mus musculus with 6 samples.

Results

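The products of the mir-17/92 and mir-106b/25 clusters were followed in small RNA libraries from mouse pancreatic islets, the groups of hormone-secreting cells of the pancreas. The 10 miRNAs are the rows of the deposited table with these names: mmu-miR-17-5p, mmu-miR-18a-5p, mmu-miR-19a-3p, mmu-miR-20a-5p, mmu-miR-19b-3p and mmu-miR-92a-3p of mir-17/92, and mmu-miR-106b-5p, mmu-miR-106b-3p, mmu-miR-93-5p and mmu-miR-25-3p of mir-106b/25. The prefix for mouse is left out below. They are 10 of 1011 listed rows, of which 958 carry mouse miRNA names. Primary islets came from mice labelled as HFD-fed (3 libraries) or as NCD-fed (3 libraries). The labels give no strain, sex, age or length of feeding, and do not say whether a library held 1 animal or a pool, so p-values measure the spread between these libraries, which may be technical.

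Both clusters are transcribed as polycistronic precursors that are cut into several hairpins, and the mature miRNAs then repress mRNAs through bases 2 to 8, the seed. They are known for promoting proliferation and survival: MYC and E2F factors induce them, and the miR-17 seed represses the cell cycle inhibitor Cdkn1a. The miR-92 seed, shared by miR-25, represses the pro-apoptotic Bcl2l11. In rats, miR-25 and miR-92a have been reported to bind insulin mRNA and lower its translation.

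The mature sequences are shown because the clusters share seeds across chromosomes, which bears on what the miRNAs can pair with. The full sequences show which rows are near-identical and could exchange reads. All 10 deposited sequences equal the RefSeq mature sequences (GRCm38.p6). They are written 5′ to 3′ with the seed in capitals.
miR-17-5p: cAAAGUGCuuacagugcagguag
miR-20a-5p: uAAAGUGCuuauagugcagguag
miR-93-5p: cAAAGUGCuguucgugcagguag
miR-106b-5p: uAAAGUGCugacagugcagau
miR-18a-5p: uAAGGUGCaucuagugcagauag
miR-19a-3p: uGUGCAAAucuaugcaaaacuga
miR-19b-3p: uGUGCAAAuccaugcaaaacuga
miR-92a-3p: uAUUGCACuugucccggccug
miR-25-3p: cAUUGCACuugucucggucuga
miR-106b-3p: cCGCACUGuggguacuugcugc

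The miR-17 seed AAAGUGC is held by 4 of the 10 miRNAs, 2 from each cluster, and by 5 of the 958 mouse rows. The miR-92 seed AUUGCAC is held by miR-92a-3p and miR-25-3p, 1 from each cluster, and also by 5 mouse rows. miR-19a-3p and miR-19b-3p differ by 1 base of 23, miR-17-5p and miR-20a-5p by 2 of 23, and miR-92a-3p and miR-25-3p by 3 of 21. The sources used here do not state to which row a read matching several of them was assigned.

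The mir-17/92 products lie within 813 bases on chromosome 14 (GRCm38.p6, plus strand, chr14:115043684-115044496), inside the long non-coding host gene Mir17hg, whose exons overlap them in GENCODE M21. The same mature miR-19b-3p and miR-92a-3p also match hairpins of a paralogous cluster on chromosome X, which encodes miR-106a and miR-363 as well, so their reads cannot be assigned to 1 locus. The mir-106b/25 products lie within 476 bases on chromosome 5 (minus strand, chr5:138165332-138165807) inside Mcm7, which encodes a subunit of the replicative helicase. There miR-106b is intronic, and miR-93 and miR-25 also overlap an annotated exon of Mcm7.

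Library totals ran from 7166712 to 11172255 counts, and the 10 miRNAs together took 3239 to 4822 of them, or 0.0303% to 0.0594%. Libraries of the same diet differed well beyond counting noise (chi-square per degree of freedom, 464 to 2277). Levels are read counts scaled to CPM on totals scaled by trimmed-mean (TMM) factors; a count of 0 allowed up to 0.213 to 0.445 CPM, which covers counting error only. The factor of NCD 3 was 1.73, against 0.84 to 0.995 in the other 5 libraries. The islet label fits its markers, since all 9 listed endocrine miRNAs were present. Their summed level was 516007 to 602223 CPM in HFD and 295050 to 651213 CPM in NCD libraries. The lowest of these sums, in NCD 3, depended on the scaling factor of that library and was not the lowest on unscaled totals. Ligation favours some miRNA ends over others, so a level is best compared with that of the same miRNA in another library.

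The abundance of the products of a shared precursor was very uneven. miR-25-3p took 56.2% of the reads of the 10 miRNAs over all libraries, miR-92a-3p 27.0% and miR-106b-3p 12.1%, together 95.3%. The 4 miRNAs with the miR-17 seed summed to 7.57, 12.9 and 15.4 CPM in HFD 1, 2 and 3 and to 23.6, 12.2 and 23.7 CPM in NCD 1, 2 and 3. The 2 miRNAs with the miR-19 seed summed to 0.334 to 2.18 CPM in HFD and 2.25 to 3.41 CPM in NCD libraries. The members best known for driving growth, miR-17-5p, miR-20a-5p and the miR-19 pair, were each at 11.6 CPM or less in every library.

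The first comparison asked which products of mir-17/92 differ between diets. None of its miRNAs passed an adjusted p of 0.05, where 0.246% of all tested miRNAs did. Each of the 4 that could be tested had a negative log2 fold change, HFD against NCD, where the share of all tested miRNAs was 48.5%. miR-92a-3p, the abundant member, was at 57.0, 100.2 and 66.5 CPM in HFD 1, 2 and 3, against 177, 101.2 and 140.3 CPM in NCD 1, 2 and 3. Each HFD library lay below each NCD library, but HFD 2 and NCD 2 nearly touched. Its mean over HFD libraries was 74.6 ± 22.7 CPM, against 139.6 ± 38.1 CPM over NCD libraries (SD, n = 3 each). The log2 fold change was -0.90 ± 0.35 (SE), and the edgeR quasi-likelihood test gave an unadjusted p of 0.0217 and an adjusted p of 0.48 over 406 miRNAs. In bulk islet RNA, fewer cells of a type and less RNA per cell cannot be told apart.

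miR-20a-5p, which carries the miR-17 seed, had 2.34, 4.04 and 5.27 CPM in HFD 1, 2 and 3, against 11.6, 5.64 and 8.60 CPM in NCD 1, 2 and 3. These values rested on 21 to 58 reads in HFD and 55 to 121 reads in NCD libraries. The diets again did not overlap, with HFD 3 and NCD 2 closest. The log2 fold change was -1.10 ± 0.48 (SE), with an unadjusted p of 0.0401 and an adjusted p of 0.48 (edgeR).

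miR-17-5p had 0.557, 1.39 and 1.82 CPM in HFD 1, 2 and 3, against 3.26, 1.33 and 5.12 CPM in NCD 1, 2 and 3, from 5 to 20 reads in HFD and 13 to 72 reads in NCD libraries. The diets overlapped, since NCD 2 lay below HFD 2 and HFD 3. The log2 fold change was -1.39 ± 0.65 (SE; edgeR adjusted p = 0.48), and without NCD 3, the highest library, it was -0.75 ± 0.72.

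miR-19b-3p had 0.334, 0.757 and 2.18 CPM in HFD 1, 2 and 3, against 3.12, 1.64 and 3.13 CPM in NCD 1, 2 and 3. HFD 3 lay above NCD 2, and HFD 1 held 3 reads. The log2 fold change was -1.17 ± 0.65 (SE; edgeR adjusted p = 0.562), and without HFD 3 it was -2.30. This miRNA reached the filter level of 0.995 CPM on the raw total in 3 NCD libraries and in 1 HFD library, so it was tested through the diet in which it was higher.

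The other two mir-17/92 members were too sparse to test. miR-18a-5p had 0, 3 and 2 reads in HFD 1, 2 and 3, and 3, 0 and 4 reads in NCD 1, 2 and 3. miR-19a-3p had 0 reads in each HFD library, against 2, 6 and 0 reads in NCD 1, 2 and 3. A difference between diets in either was not detectable at this depth.

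**Figure D1:**
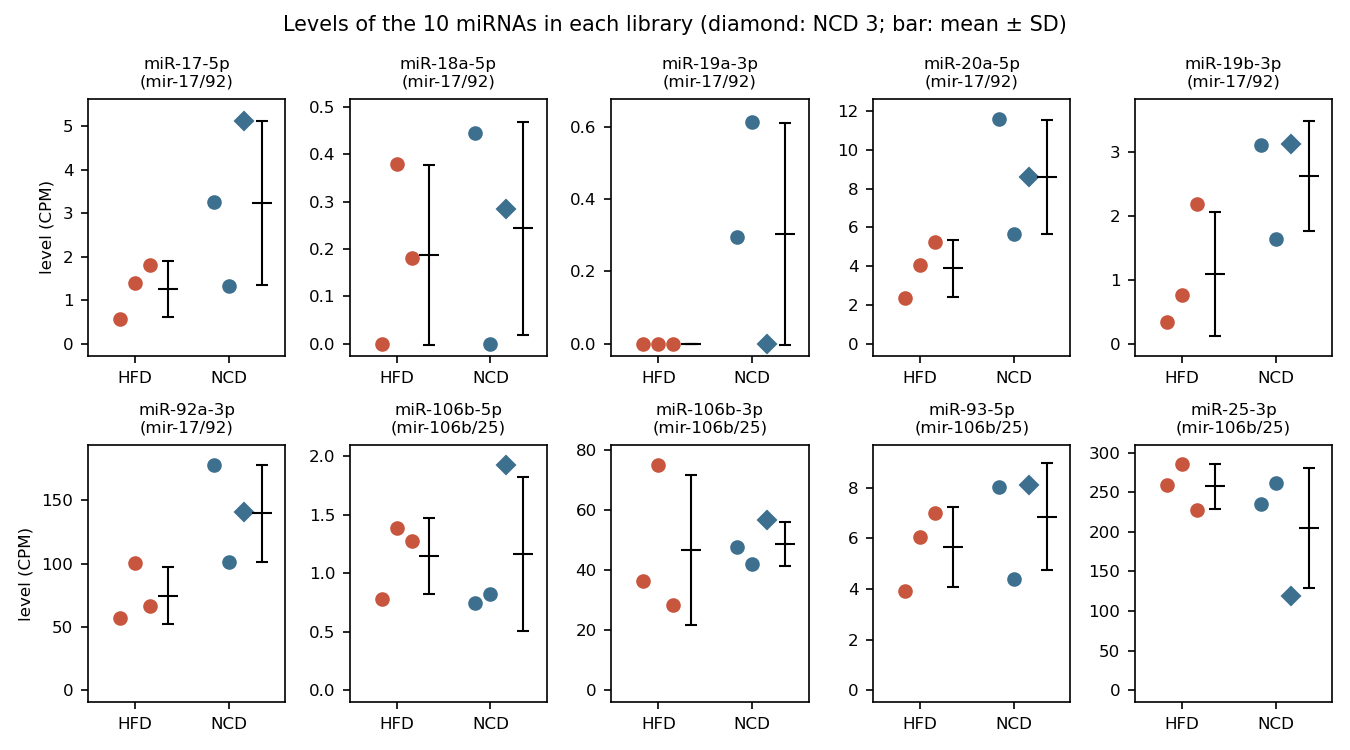
Level of each miRNA (y axis, CPM on TMM-scaled totals, a linear axis per panel) in the 3 HFD and 3 NCD libraries, with NCD 3 as a diamond and the mean ± SD beside the points. For miR-20a-5p and miR-92a-3p every HFD point lies below every NCD point, while miR-25-3p is lowest in NCD 3.

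The second comparison asked the same of mir-106b/25. With all libraries and TMM scaling, each of its log2 fold changes lay within its SE of 0. miR-25-3p, the most abundant of the 10, was at 259, 285 and 228 CPM in HFD 1, 2 and 3, against 235, 261 and 119 CPM in NCD 1, 2 and 3. HFD libraries spanned the range of NCD 1 and NCD 2, and NCD 3 stood below all others. Its log2 fold change was 0.33 ± 0.34 (SE; edgeR adjusted p = 0.693) and was 0.04 ± 0.30 without NCD 3.

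On CPM of the unscaled library total, miR-25-3p was at 218, 239.5 and 227 in HFD 1, 2 and 3, against 221, 228 and 205.6 in NCD 1, 2 and 3. On that scale its coefficient of variation over the 6 libraries was 5.09%, the smallest of the 10 miRNAs, whose other values ran from 52.8% to 166%. The level of miR-25-3p in NCD 3 relative to the other libraries thus depended on the scaling factor of that library.

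miR-106b-3p had 36.5, 75.1 and 28.6 CPM in HFD 1, 2 and 3, against 47.8, 42.0 and 56.7 CPM in NCD 1, 2 and 3. The HFD libraries held both its highest and its lowest values. The log2 fold change was -0.07 ± 0.39 (SE; edgeR adjusted p = 0.944), and its sign turned when HFD 1, HFD 3 or NCD 3 was left out.

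miR-93-5p, with the miR-17 seed, had 3.90, 6.06 and 7.001 CPM in HFD 1, 2 and 3, against 8.01, 4.41 and 8.11 CPM in NCD 1, 2 and 3. The diets overlapped at NCD 2, and the log2 fold change was -0.27 ± 0.46 (SE; edgeR adjusted p = 0.858). miR-106b-5p had 7, 11 and 14 reads in HFD 1, 2 and 3, against 5, 8 and 27 reads in NCD 1, 2 and 3. Its log2 fold change was -0.15 ± 0.64 (SE; edgeR adjusted p = 0.934) and turned to 0.53 without NCD 3, which held the most reads.

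As a list, 0 of the 8 tested members passed the threshold with edgeR, where 0.246% of all tested miRNAs did, and 0 passed with DESeq2, where 0.743% did, or with limma-voom, where 0.246% did. At an unadjusted p under 0.05, 2 of 8 were lower in HFD islets (miR-92a-3p and miR-20a-5p), where 5.17% of all tested miRNAs were. The number of members with such a p was 0 without HFD 1 or without NCD 1, and 1 without HFD 2 or without NCD 3. It was 3 without HFD 3 or without NCD 2, 3 with library totals only or DESeq2, and 2 with limma-voom. The shares of all tested miRNAs in these settings are not given here, so these counts cannot be set against them. With all libraries and TMM scaling, 10.1% of all tested miRNAs had such a p in either direction. Each HFD library lay below each NCD library for miR-92a-3p and miR-20a-5p, 2 of 8, where 4.93% of all tested miRNAs did so. The reverse order held for 0 of 8, where the share was 10.3%. Negative log2 fold changes were found for 7 of 8, where the share of all tested miRNAs was 48.5%. The median log2 fold change was -1.14 for the 4 tested mir-17/92 members and -0.11 for the 4 mir-106b/25 members, beside 0.02 for all 406 miRNAs. These counts describe members that passed a filter on low values; miR-17-5p and miR-19b-3p reached it in more NCD than HFD libraries.

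Scaling moved these values, while each mir-17/92 member stayed below each mir-106b/25 member. With library totals as the only scaling, all 406 miRNAs had a median of -0.37, and 73.4% of all tested miRNAs were negative. Under it miR-92a-3p had -1.33, miR-20a-5p -1.48, miR-17-5p -1.83 and miR-19b-3p -1.55, all further below 0 than that median. miR-106b-5p and miR-106b-3p had -0.56 each and miR-93-5p -0.68, also below the median, while miR-25-3p had 0.06.

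**Figure D2:**
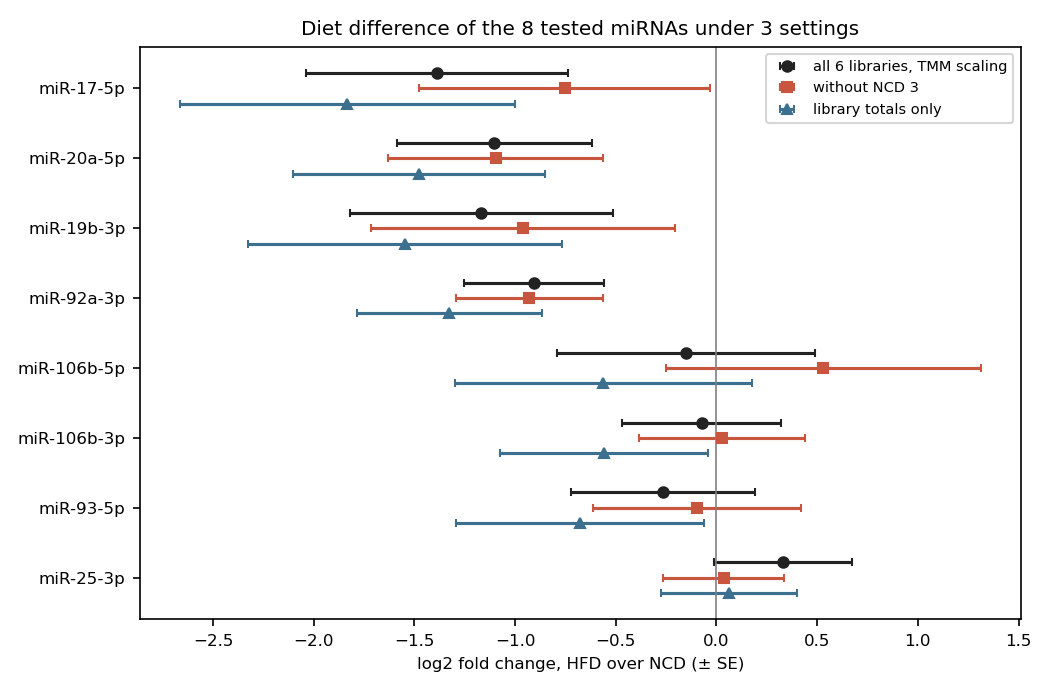
Log2 fold change, HFD over NCD (x axis, with its standard error), of the 8 tested miRNAs with all libraries and TMM scaling, without NCD 3, and with library totals only. The 4 mir-17/92 members stay below 0 in each setting, and 2 of the mir-106b/25 members, miR-106b-5p and miR-106b-3p, turn above 0 without NCD 3.

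The third comparison was between the clusters within a library, which needs no scaling. mir-17/92 products made up 16.7%, 22.5% and 22.3% of the reads of both clusters in HFD 1, 2 and 3, against 40.2%, 26.3% and 45.9% in NCD 1, 2 and 3. The mean share over HFD libraries was 20.5% ± 3.29, against 37.5% ± 10.1 over NCD libraries (SD, n = 3 each), or 33.3% over NCD 1 and NCD 2 alone. The diets did not overlap, with HFD 2 and NCD 2 closest. No test was made of this share, since the members were chosen with earlier results of these data known.

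In each cluster most reads came from the member with the miR-92 seed. There were 4.55, 2.85 and 3.43 reads of miR-25-3p per read of miR-92a-3p in HFD 1, 2 and 3, against 1.33, 2.58 and 0.846 in NCD 1, 2 and 3. In NCD 3 miR-92a-3p outnumbered miR-25-3p, and in the other 5 libraries it did not. The summed level of this pair was 316, 385 and 294 CPM in HFD 1, 2 and 3, against 413, 362.6 and 259 CPM in NCD 1, 2 and 3. The mean was 332 ± 47.5 CPM over HFD libraries, against 345 ± 78.3 CPM over NCD libraries (SD, n = 3 each) and 388 CPM over NCD 1 and NCD 2 alone. On CPM of the unscaled totals the pair had 294 ± 28.9 over HFD libraries, against 384 ± 66.02 over NCD libraries, so the size of the gap depended on NCD 3 and on its scaling. With every row that carries this seed the sums were 347 ± 48.2 and 366 ± 79.2 CPM.

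**Figure D3:**
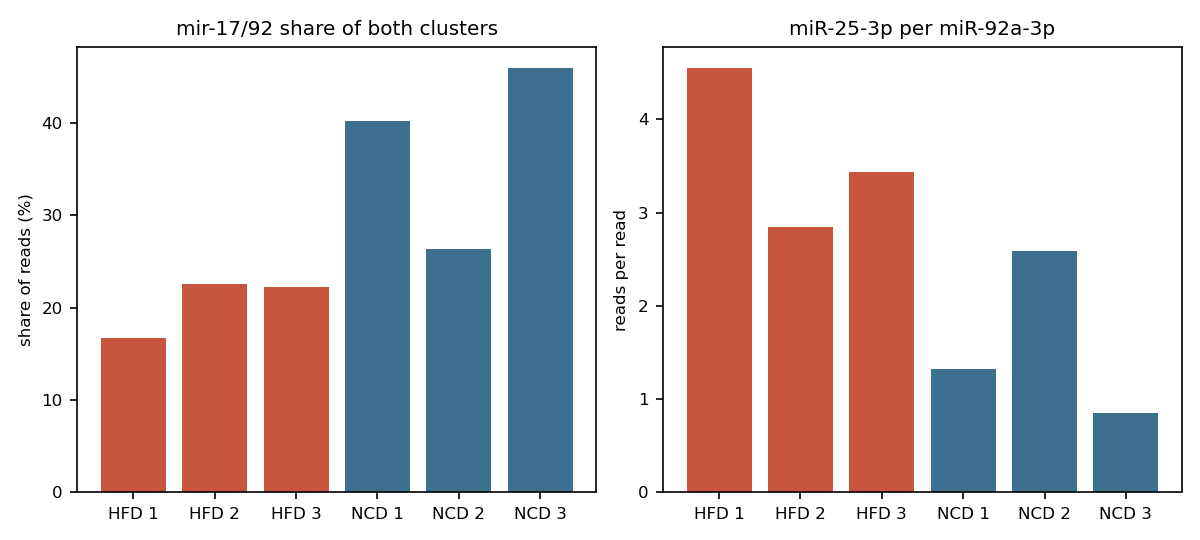
Left, share of mir-17/92 products among the reads of both clusters (y axis, %); right, reads of miR-25-3p per read of miR-92a-3p (y axis), each as a bar per library. The 3 HFD libraries have lower shares (16.7% to 22.5%) than the 3 NCD libraries (26.3% to 45.9%) and higher ratios (2.85 to 4.55, against 0.846 to 2.58).

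The other rows with the miR-92 seed differed among themselves. miR-92b-3p, which differs from miR-92a-3p by 2 of 21 bases, had 9.91, 11.1 and 6.36 CPM in HFD 1, 2 and 3, against 21.1, 12.7 and 14.4 CPM in NCD 1, 2 and 3. Its diets did not overlap either, and the log2 fold change was -0.81 ± 0.41 (SE; edgeR adjusted p = 0.505). miR-32-5p and miR-363-3p, at 3.50 and 1.80 CPM over all libraries, had log2 fold changes of 0.07 ± 0.51 and 0.05 ± 0.61. miR-363-3p was the 1 tested product of the X-linked cluster beyond the shared ones, and rested on 113 reads. miR-92a-3p and miR-19b-3p, which that cluster can also produce, had -0.90 and -1.17, and their differences from miR-363-3p were not tested. Of the 10 listed names of that cluster beyond the shared ones, 2 had a row under these names, and the other one, miR-20b-5p, held 8 reads in all.

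The arms of the mir-106b hairpin were very unequal, and the hairpin is shown for that reason (chr5:138165737-138165818, minus strand), with the 5p arm and then the 3p arm in capitals.
mir-106b hairpin: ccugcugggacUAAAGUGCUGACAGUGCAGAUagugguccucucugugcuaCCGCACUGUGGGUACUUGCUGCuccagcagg

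The 3p arm, whose seed CGCACUG is held by no other mouse row, had 2766 reads over all libraries and the 5p arm, which carries the miR-17 seed, had 72. Of the reads of both arms, 2.09%, 1.82% and 4.27% were 5p in HFD 1, 2 and 3, against 1.53%, 1.91% and 3.28% in NCD 1, 2 and 3. The exact 95% intervals reached from 0.844% to 7.06% over the HFD and from 0.498% to 4.73% over the NCD libraries and overlapped throughout. On the log2 scale the ratio of the 5p to the 3p arm averaged -5.20 ± 0.67 over HFD libraries, against -5.44 ± 0.52 over NCD libraries (SD, n = 3 each), and the two-sided exact permutation test gave p = 0.6.

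Among the 8 other listed products of these hairpins, 1 had enough reads to be tested. miR-25-5p, the opposite arm of miR-25-3p, had 4, 1 and 13 reads in HFD 1, 2 and 3, against 14, 19 and 23 reads in NCD 1, 2 and 3. The diets did not overlap, and the log2 fold change was -1.51 ± 0.70 (SE; edgeR adjusted p = 0.48). It reached the filter level in 3 NCD libraries and in 1 HFD library, so it was tested through the diet in which it was higher. The 3p arm of the same hairpin had 0.33, and the difference between the arms was not tested. The remaining products with a row, miR-17-3p, miR-18a-3p, miR-20a-3p, miR-92a-1-5p and miR-93-3p, held 12, 6, 7, 1 and 2 reads over all libraries.

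Products of 1 precursor with different seeds were also compared as ratios within a library. The log2 ratio of miR-25-3p to miR-93-5p was 6.04, 5.54 and 5.02 in HFD 1, 2 and 3, against 4.86, 5.87 and 3.87 in NCD 1, 2 and 3, a difference of 0.66 (two-sided exact permutation p = 0.4) that was 0.16 without NCD 3 and 1.17 without NCD 2. That of miR-92a-3p to miR-17-5p was 6.54, 6.11 and 5.16 in HFD, against 5.73, 6.19 and 4.77 in NCD 1, 2 and 3, a difference of 0.37 (exact permutation p = 0.6) that was -0.03 without NCD 3. Over the 3 ratios the adjusted p was 0.6 each, and 3 libraries against 3 cannot give a p below 0.1.

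The pull of NCD 3 differed between members. On TMM-scaled levels, NCD 3 was the highest library for 4 of 8 tested members (miR-17-5p, miR-19b-3p, miR-106b-5p and miR-93-5p), where it was highest for 22.4% of all tested miRNAs. It lay above the log2 mean of the other 5 libraries for 7 of 8, where the share was 48.3%, by 0.38 for miR-106b-3p up to 1.78 for miR-17-5p, and by at least 1 for 2 of 8 (miR-17-5p and miR-19b-3p), where the share was 15.5%. miR-25-3p was the exception at -1.09, with NCD 3 as its lowest library, as for 21.7% of all tested miRNAs. On CPM of the unscaled totals NCD 3 was highest for 7 of 8, where it was highest for 65.3% of all tested miRNAs, and lowest for miR-25-3p, where it was lowest for 4.68%.

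Against NCD 1 and NCD 2 alone, NCD 3 was higher by 1.26 for miR-17-5p, 0.45 for miR-19b-3p and 1.21 for miR-106b-5p on the log2 scale. For miR-92a-3p and miR-20a-5p the corresponding values were 0.07 and 0.09. Without NCD 3 the log2 fold changes of that pair were -0.93 and -1.10, close to those with all libraries. On TMM-scaled levels these log2 fold changes thus did not rest on this library. On CPM of the unscaled totals NCD 3 was the highest library for both. There miR-92a-3p was at 243 in NCD 3 and 167 in NCD 1, and miR-20a-5p at 14.9 and 10.9. Of the 8 tested members 5 were negative without NCD 3, where 47% of all tested miRNAs were. At the other end of the order, HFD 1 was the lowest library for all 4 tested mir-17/92 members and for 5 of 8 tested members, where it was lowest for 15.8% of all tested miRNAs. Leaving out HFD 1 gave log2 fold changes of -0.77 for miR-92a-3p, -0.87 for miR-20a-5p, -1.07 for miR-17-5p and -0.78 for miR-19b-3p.

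Markers of other cells also differed between these libraries. The 4 acinar miRNAs, from the enzyme-secreting cells around islets, summed to 20.2, 139 and 205 CPM in HFD 1, 2 and 3, against 111, 173 and 418 CPM in NCD 1, 2 and 3. They were lowest in HFD 1, where miR-216a-5p and miR-216a-3p had 0 reads, and highest in NCD 3. Of these, 3 of 3 tested ones had negative log2 fold changes, where the share of all tested miRNAs was 48.5%. In NCD 3 the tested acinar miRNAs lay 1.93 to 2.50 above the log2 mean of the other libraries on TMM-scaled levels. All 9 endocrine miRNAs lay below it, miR-375-3p by -1.08, close to the value of miR-25-3p. The place of the endocrine miRNAs depended on the scaling factor of NCD 3. On CPM of the unscaled totals miR-375-3p was at 295958 in NCD 3, against 232079 to 350524 in HFD libraries. On that scale NCD 3 was the highest library for miR-184-3p and miR-129-5p, and not for the other endocrine miRNAs. The part of these cells in the values of the clusters was not tested.

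Blood and vessel miRNAs were also present. The 5 leukocyte miRNAs summed to 6.18 to 13.3 CPM in HFD and 13.0 to 30.4 CPM in NCD libraries, highest in NCD 1. Of these, 3 of 3 tested ones had negative log2 fold changes, where the share of all tested miRNAs was 48.5%. The 4 erythroid miRNAs summed to 47.8 to 154.6 CPM in HFD and 39.8 to 143 CPM in NCD libraries, so that the diets overlapped, with 2 of 2 tested ones negative. The 2 endothelial miRNAs summed to 299.8 to 434 CPM in HFD and 346 to 748 CPM in NCD libraries, highest in NCD 1, with 2 of 2 negative. The 4 liver and muscle miRNAs summed to 48.3 to 130.4 CPM in HFD libraries, against 885, 127 and 131 CPM in NCD 1, 2 and 3, with 3 of 3 negative. On TMM-scaled levels NCD 1 was thus the highest library for the endothelial and the liver and muscle sums as well as for miR-92a-3p and miR-20a-5p. On CPM of the unscaled totals the highest library for miR-92a-3p and miR-20a-5p was NCD 3. None of these lists was at 0 in a library, 0 of their tested miRNAs passed the edgeR threshold, and their part in the results was not tested.

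**Figure D4:**
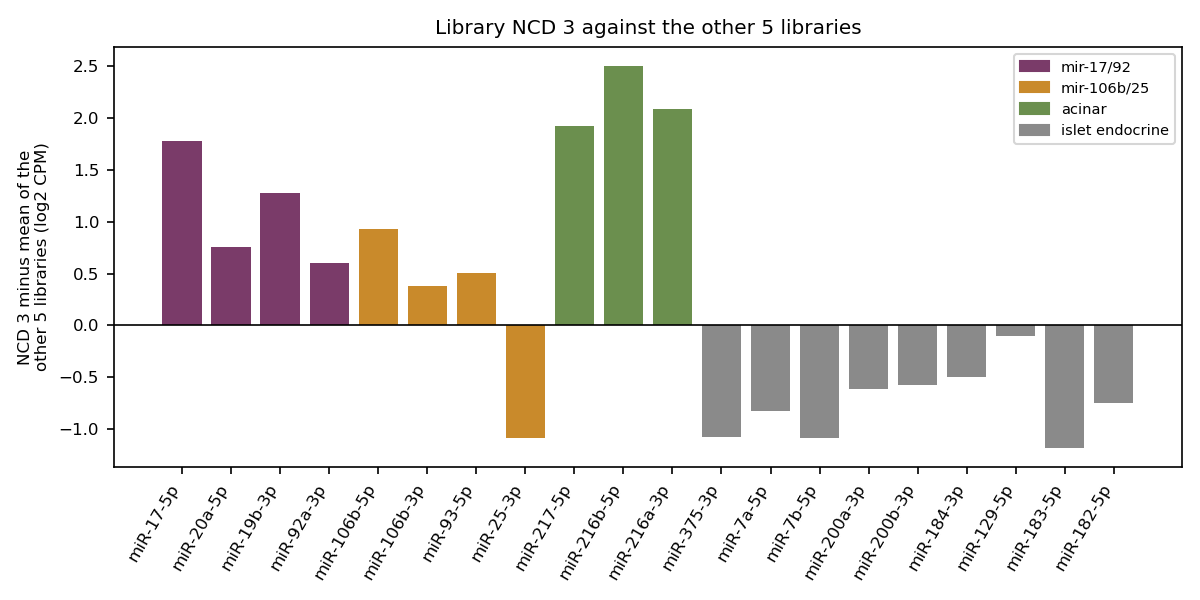
Log2 level in NCD 3 minus the mean log2 level of the other 5 libraries (y axis) for the 8 tested cluster members and, for reference, the tested acinar and endocrine miRNAs, a bar per miRNA. The members lie between 0.38 and 1.78 except miR-25-3p at -1.09, the acinar miRNAs between 1.93 and 2.50, and the endocrine miRNAs below 0. Levels are TMM-scaled, so all bars move with the scaling factor of NCD 3.

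The miRNAs whose pattern over the 6 libraries was most like the mean profile of the 6 mir-17/92 members were miR-125a-5p, miR-145a-5p, miR-222-3p, miR-320-3p and miR-125b-5p. Their root mean square differences from that profile on centred log2 levels were 0.29, 0.46, 0.49, 0.49 and 0.50, where the median over 236 candidates was 0.94. miR-125a-5p, the closest, had 753, 992 and 1187 CPM in HFD 1, 2 and 3, against 2307, 1410.1 and 1982 CPM in NCD 1, 2 and 3. Its diets did not overlap, where 4.93% of all tested miRNAs had each HFD library below each NCD library. Its log2 fold change of -0.96 ± 0.32 did not pass (SE, edgeR adjusted p = 0.363). It was chosen for its likeness over these same 6 libraries, so its order by diet follows largely from that choice and is no separate result. The profile was lowest in HFD 1 (-1.38) and highest in NCD 1 (1.18) and includes the sparse miR-18a-5p and miR-19a-3p. miR-19a-3p, with 2 reads in NCD 1 and 0 in NCD 3, entered it with centred values of 1.81 and -1.57. The effect of these sparse rows on the profile and on the miRNAs found most like it was not tested.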

How the data were processed

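Small RNA libraries from islets (RNeasy columns and the NEBNext small RNA kit, per the labels' protocols) were deposited by the authors as a table of raw read counts per mature miRNA and as TPM, which equal CPM on each raw total and were not tested. The sources used here name no aligner, build or counting rule. The counts were tested in edgeR 4.0.16 (R 4.3.3): filterByExpr (minimum count 10), TMM factors, estimateDisp and the non-legacy quasi-likelihood test, HFD against NCD, with Benjamini-Hochberg adjustment over 406 miRNAs and a threshold of 0.05. Alternatives were RLE factors, library totals only, other filters, DESeq2 1.42.0, limma-voom 3.58.1, the replicate number as a block, near-identical rows summed and each library left out; the legacy setting was added after seeing the data. Log2 levels and ratios used a prior count of 0.5, and ratios were tested by exact permutation over libraries. The miRNAs named are the members, the other products and paralogs of their hairpins, rows with the miR-92 seed, cell type markers and the 5 most like miRNAs with a mean of at least 10 CPM. The members and lists were chosen with earlier results of these data known. Steps were tested on simulated data. Sequences and coordinates are from RefSeq (GRCm38.p6) and host genes from GENCODE M21.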

Additional observations from a re-analysis of the deposited data

How the results depend on the processing

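No member passed the threshold in any of the 15 alternatives, and the lowest adjusted p of a member was 0.207 (miR-92a-3p without NCD 2). Of 115 member values recomputed, 110 kept their direction and 5 turned: miR-106b-5p had 0.02 without HFD 1 and 0.53 without NCD 3, and miR-106b-3p had 0.05 without HFD 1, 0.14 without HFD 3 and 0.03 without NCD 3. With a library left out they ran from -0.40 to 0.53 and from -0.63 to 0.14. The 4 tested mir-17/92 members and miR-93-5p were negative, and miR-25-3p positive, in each alternative in which they were tested. The number of negative members was 7 at first and 2 with a mean of at least 100 counts, where 3 members were tested, and ran from 5 to 7 when a library was left out. The median of mir-17/92 ran from -1.65 to -0.83 when a library was left out. That of mir-106b/25 ran from -0.35 to 0.04 and was -0.56 with library totals only. Over all miRNAs the number called was 1 at first, 0 with library totals only, 8 without a filter and 3 with DESeq2, and 0 to 4 when a library was left out, 0 without NCD 1, 4 without NCD 2 and 3 without NCD 3; the causes were not tested. The difference of the miR-106b arm ratio ran from -0.13 (without HFD 3) to 0.54, that of miR-25-3p to miR-93-5p from 0.16 to 1.17, and that of miR-92a-3p to miR-17-5p from -0.026 (without NCD 3) to 0.76. Same-numbered libraries of both diets deviated from their diet means with correlations of 0.14, -0.24 and 0.30. These were not set against differently numbered libraries, so they cannot settle whether the numbers pair libraries. With the replicate block 1 miRNA and 0 members were called. Depth limits 7 of the 10 members, which held 8 to 371 reads over all libraries.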
